A study of Homo sapiens with 3 samples.

Results

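The 10 genes described here, ATF4, DDIT3, TRIB3, ASNS, CHAC1, PSAT1, PHGDH, SLC7A11, PPP1R15A and CEBPG, are ATF4 and genes of the integrated stress response that it heads. They were chosen by name, as every noncontrol probe whose gene name on the array was 1 of the 10, and were 10 of the 27274 gene names and 11 of the 34127 probes on the array. They were measured in HepG2, an established human hepatocarcinoma line with wild-type p53, after 30 h with 0, 10 or 100 μM etoposide, a topoisomerase II poison that breaks both strands of DNA. Each dose had 1 RNA sample on 1 Agilent array with 1 color, and the study used the 10 μM dose (the low dose) to induce senescence and the 100 μM dose (the high dose) to induce apoptosis. The labels call the control cells untreated, whereas the study's table of array values names them DMSO, so whether the control received the solvent was not settled.

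In the integrated stress response, kinases that sense heme loss, double-stranded RNA, unfolded protein in the endoplasmic reticulum (ER) or amino acid shortage phosphorylate the translation factor eIF2. General protein synthesis then slows while a few mRNAs, ATF4 among them, are translated better, and the ATF4 protein turns on genes for amino acid synthesis and uptake, redox balance and, through DDIT3 (CHOP), cell death. Because ATF4 is controlled largely at translation, the level of its mRNA is not a measure of its protein, and only mRNA was measured here. In liver and liver tumor cells this program is known for its response to amino acid shortage and ER stress.

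Where ATF4 acts on a promoter it usually pairs with a C/EBP protein on the C/EBP-ATF response element, whose core is TGATGNAA. The promoter windows of RefSeq (GRCh38.p14, 250 bases before to 50 after each start) were searched on both strands for this core, for the cAMP response element TGACGTCA and for the ER stress response element. The first and second cannot match at the same position and strand, and no window of the 10 genes held more than 1 of these elements. Of the 10 genes, 9 had a window and SLC7A11 had none. The C/EBP-ATF core was found in 3 of the 9 (ASNS, CHAC1 and CEBPG) and in 4.46% of the 27305 genes with a window. The cAMP response element was found in 1 of the 9 (PPP1R15A) and in 2.25% of genes, and the ER stress response element in none of the 9 and in 0.0916% of genes. A match is a description of these letters and not a measured binding site. The stretches around the 4 matches are printed 5′ to 3′ on the strand of the gene, with the match in capitals, since these elements are the DNA on which factors of the ATF and C/EBP families are known to act.
ASNS, chr7:97872458-97872487, minus strand, match beginning 68 bases before the start: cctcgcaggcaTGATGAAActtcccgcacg
CHAC1, chr15:40953251-40953280, plus strand, match beginning 209 bases before the start and lying on the opposite strand, so that the capitals are the reverse complement of the core: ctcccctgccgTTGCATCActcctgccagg
CEBPG, chr19:33374060-33374089, plus strand, match beginning 42 bases before the start of 1 of its windows: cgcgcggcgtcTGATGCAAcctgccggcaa
PPP1R15A, chr19:48872352-48872381, plus strand, match beginning 58 bases before the start, the cAMP response element: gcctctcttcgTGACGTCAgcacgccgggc

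The match of ASNS is shown in all the 250 bases before its start (chr7:97872409-97872658), because ASNS is the gene in which amino acid control through this element is best known and at the high dose it had the second-deepest decrease among the 10 genes.
ASNS promoter: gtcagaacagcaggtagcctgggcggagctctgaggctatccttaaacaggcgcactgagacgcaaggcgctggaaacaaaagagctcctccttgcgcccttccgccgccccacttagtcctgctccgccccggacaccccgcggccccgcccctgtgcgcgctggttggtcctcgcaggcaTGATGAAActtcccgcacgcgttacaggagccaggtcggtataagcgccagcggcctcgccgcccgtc

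All 10 genes were measurable. By its brightest probe, each was well above background on all 3 arrays by the call of the scanner software, and no spot of any array was saturated. CHAC1 had 2 probes, of which the dimmer one was not well above background on any array (signals of 22.1, 12.4 and 5.38 at 0, 10 and 100 μM) and gives no fold change. The arrays were set relative to the 75th percentile of their signals, which lay at 514, 536 and 432 for 0, 10 and 100 μM, and the lowest signals well above background were 19.5, 22.7 and 21.6. All 8 liver markers examined, such as ALB and AFP, were well above background on every array, with median signals of 10096, 11283 and 10984. After scaling, their median log2 fold change was −0.01 with 10 μM and 0.49 with 100 μM, where TTR was higher past 2-fold (1.11) and ALB stood at −0.52. With 1 array per dose no test between doses is possible, so every fold change describes 3 arrays. Each probe of the 10 genes had 1 spot per array, so the error given with a fold change is not the gene's own. It is the SD between spots of repeated probes of similar signal on the same array, carried over to the ratio. It contains no spread between cultures.

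All 10 genes were lower than in control cells at the low dose, where 54.6% of all genes were lower by any amount (9 of 10 without scaling of the arrays), and all 10 were lower again at the high dose (42.4% of all genes). Past 2-fold, TRIB3 and SLC7A11 were lower at the low dose (2 of 10, where 1.61% of 16664 genes were lower past 2-fold), and 8 of 10 were lower at the high dose, all but CHAC1 and PPP1R15A (3.71% of 16779 genes). No member was higher past 2-fold at either dose, where 3.38% and 6.84% of genes were. The median log2 fold change of the 10 genes was −0.76 for the low and −1.20 for the high dose, beside −0.04 and 0.10 for all genes. At a threshold of 1.5-fold, 6 of 10 genes were lower at the low dose (6.5% of all genes) and 8 of 10 at the high dose (9.82%). Decreases past 3-fold were found for 3 of 10 genes at the high dose (SLC7A11, ASNS and TRIB3; 1.69% of all genes) and for 0 of 10 at the low dose (0.39%). The signal was ordered control above low dose above high dose for 9 of 10 genes, all but CHAC1, that is, 9 of 10 were lower at the high than at the low dose (39.9% of all genes), and this full order held for 19.7% of the 15178 genes well above background on all arrays. Since these RNAs came from whole cultures, fewer cells expressing a gene and less RNA per cell cannot be told apart.

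**Figure D1:**
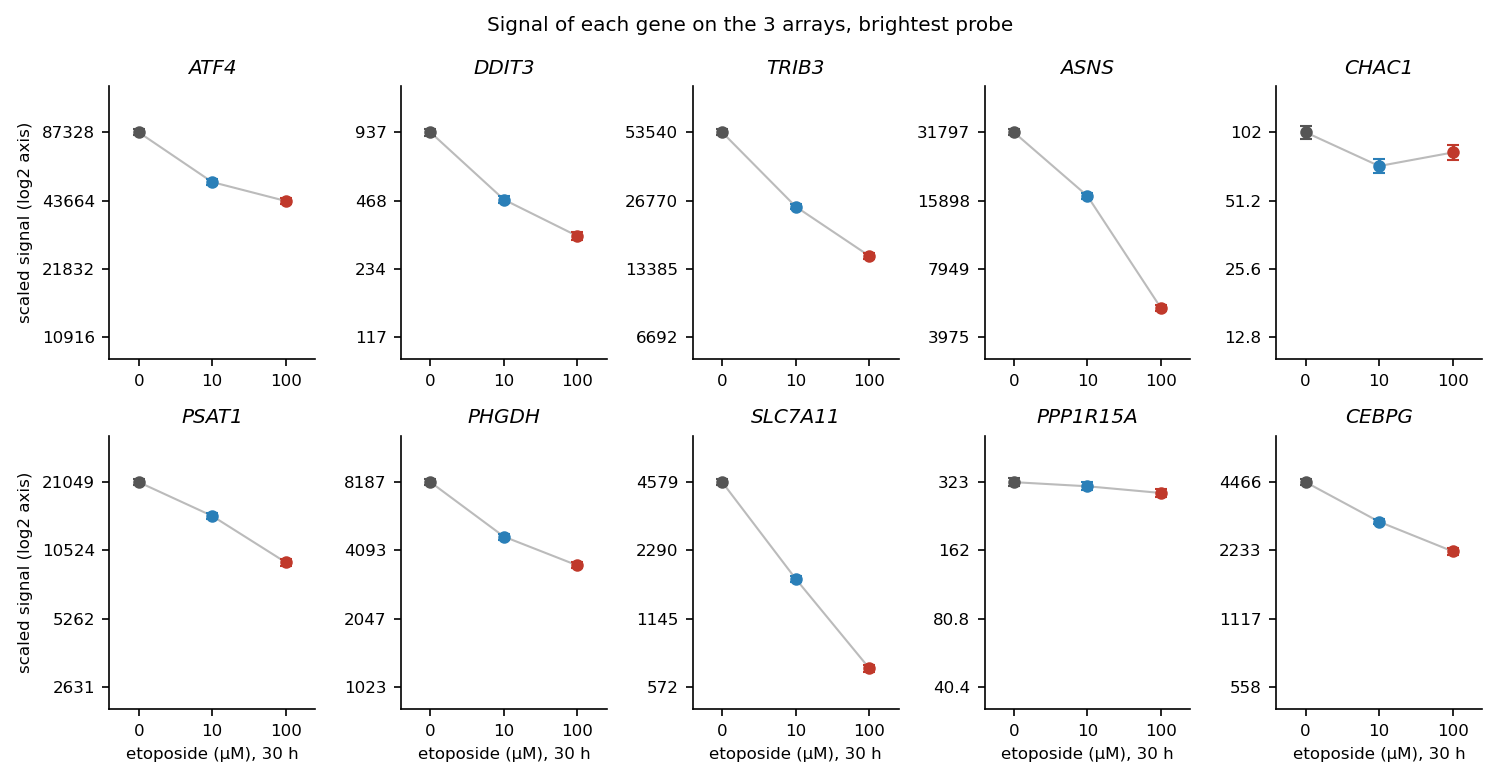
Signal of each of the 10 genes (brightest probe) on the 3 arrays by etoposide dose (μM, 30 h), after scaling each array to the 75th percentile of the control array. The vertical axis is logarithmic (base 2), spans the same number of doublings in every panel and has its upper tick at the control signal. Bars are ±1 SD between spots of repeated probes of similar signal on the same array, and there is 1 array per dose. SLC7A11 and ASNS had the steepest lines, and 8 lines reached a fold of 2 or more at 100 μM. The line of PPP1R15A stayed near the control signal, and that of CHAC1 stood at 71.0% of it at 10 μM and 81.5% at 100 μM.

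ATF4 itself, the transcription factor at the centre of the response (probe at chr22:38248523-38248582 of hg18, NM_001675), had deposited signals of 87328, 55008 and 36594 at 0, 10 and 100 μM, the order in which signals are given for every gene here. The larger step lay between control cells and the low dose. After scaling, its log2 fold change was −0.73 ± 0.06 (SD between spots) with 10 μM and −1.01 ± 0.06 with 100 μM, a 2.01-fold decrease that sits at the 2-fold threshold. With quantile normalization it was −0.93, under 2-fold. Between the doses it differed by −0.28 ± 0.06.

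CEBPG, a C/EBP protein that pairs with ATF4 and carries the core printed above (chr19:38565306-38565365 of hg18, NM_001806), had signals of 4466, 3118 and 1862. It was lower at each dose than at the one before, and its log2 fold changes of −0.58 ± 0.06 and −1.01 ± 0.07 put it beside ATF4 at the high dose. Of the 16779 genes with a fold change at the high dose, 3.59% were lower than CEBPG and 3.68% lower than ATF4. Both genes were past 2-fold under 10 of the 13 settings tried, and the next gene outside the threshold, CHAC1, had a 1.23-fold decrease.

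DDIT3, which encodes CHOP, a C/EBP-related factor induced by ATF4 and linked to cell death in ER stress, was measured with a probe whose target spans 327 bases of hg18 (chr12:56197467-56197793, NM_004083) and so crosses an exon junction. Its signals were 937, 494 and 275. The low dose stood at the edge of a 2-fold decrease, with a log2 fold change of −0.98 ± 0.07, and the high dose beyond it, at −1.52 ± 0.08, a 2.87-fold decrease. DDIT3 was thus lower at the dose at which the study induced apoptosis than at the dose at which it induced senescence, by −0.53 ± 0.08 on the log2 scale.

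TRIB3, a pseudokinase induced by ATF4 and CHOP that feeds back on both (chr20:326107-326166 of hg18, NM_021158), had signals of 53540, 26297 and 12855. It was 2.12-fold lower with 10 μM and 3.50-fold lower with 100 μM (log2 fold changes of −1.09 ± 0.06 and −1.81 ± 0.06). Of all genes, 1.29% were lower than TRIB3 at the high dose.

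PPP1R15A, which encodes GADD34, the inducible subunit that brings a phosphatase to eIF2 and so ends the response, differed least. Its probe also crosses an exon junction (chr19:54069939-54070713 of hg18, 775 bases, NM_014330), and its signals were 323, 323 and 243. Scaling set the log2 fold changes at −0.06 ± 0.08 and −0.16 ± 0.09 for the 2 doses, both within 2 SD between spots of 0. Without scaling the low dose turned to 0.00. The high dose moved beyond 2 SD, to −0.41 without scaling, −0.45 with median scaling, −0.33 with spike-in scaling and −0.21 with quantile normalization.

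Among the enzymes of amino acid synthesis, ASNS, which makes asparagine from aspartate and glutamine (chr7:97319397-97319456 of hg18, NM_001673), had signals of 31797, 17396 and 4502. Its decrease was 1.91-fold with 10 μM and 5.94-fold with 100 μM (log2 fold changes of −0.93 ± 0.06 and −2.57 ± 0.06). The step from the low to the high dose, −1.64 ± 0.06, was larger than the first step, and of the 10 genes this one had the deepest decrease between the doses. Of all genes, 0.447% were lower than ASNS at the high dose.

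PHGDH and PSAT1 catalyse consecutive steps of serine synthesis. PHGDH (chr1:120087052-120087111 of hg18, NM_006623) had signals of 8187, 4915 and 2958, with log2 fold changes of −0.80 ± 0.06 and −1.22 ± 0.06. PSAT1 (chr9:80134598-80134657 of hg18, NM_058179) had signals of 21049, 15590 and 7848, with log2 fold changes of −0.49 ± 0.06 and −1.17 ± 0.06. The pair differed by more than the spot SDs at the low dose and by less than their sum at the high dose, where the decreases were 2.33-fold and 2.26-fold. Between the doses PSAT1 differed by −0.68 ± 0.07 and PHGDH by −0.42 ± 0.06.

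SLC7A11, the cystine transporter xCT, which brings in cystine for glutathione synthesis and protects cells from ferroptosis (chr4:139304883-139304942 of hg18, NM_014331), showed the deepest decrease of the 10 genes at both doses. Its signals were 4579, 1792 and 584. The log2 fold change was −1.41 ± 0.06 with 10 μM (2.67-fold lower) and −2.72 ± 0.07 with 100 μM (6.60-fold lower), and 0.352% of all genes were lower at the high dose. Between the doses it differed by −1.31 ± 0.07, so that SLC7A11 and ASNS were the 2 of 10 genes lower past 2-fold from the low to the high dose, where 3.66% of 16688 genes were. Past 1.5-fold this count was 4 of 10 (7.52%) and past 3-fold 1 of 10, ASNS (1.89%), and 0 of 10 were higher past 2-fold (3.97%).

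CHAC1, which degrades glutathione and is a sensitive target of ATF4, was near the dim end of the array. Its brighter probe (chr15:39035923-39035982 of hg18, NM_024111) had signals of 102, 75.9 and 70.1, and its dimmer probe lies at chr15:39035106-39035165. The log2 fold change was −0.49 ± 0.14 with 10 μM and −0.30 ± 0.15 with 100 μM. It was the 1 gene of the 10 with a higher scaled value at the high than at the low dose, by 0.20 ± 0.14, a difference within 2 SD between spots that turned to −0.11 without scaling, −0.07 with median scaling and −0.03 with spike-in scaling. With the mean of both probes the decrease at the high dose was −1.04, which rests on the probe below background.

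**Figure D2:**
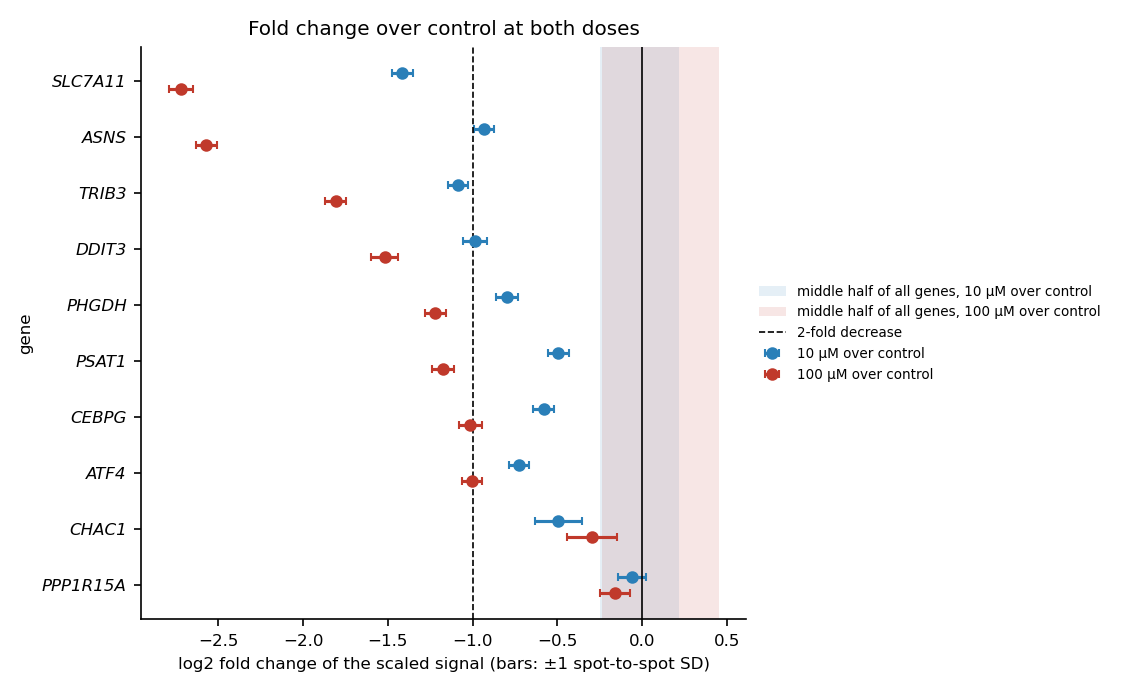
Log2 fold change of the scaled signal over control for each of the 10 genes at 10 μM (blue) and 100 μM (red), with 1 array per dose. Bars are ±1 SD between spots of repeated probes of similar signal. The dashed line marks a 2-fold decrease and the shaded bands the middle 50% of all genes with a fold change. At 100 μM the order ran from SLC7A11 at −2.72 and ASNS at −2.57 to CEBPG at −1.01 and ATF4 at −1.01 on the line, with CHAC1 and PPP1R15A at −0.30 and −0.16.

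In the order of the decrease at the high dose, neighbours were SLC7A11, ASNS, TRIB3, DDIT3, PHGDH, PSAT1, CEBPG, ATF4, CHAC1 and PPP1R15A. Differences of under 2 SD between spots separated SLC7A11 from ASNS, PHGDH from PSAT1, PSAT1 from CEBPG, CEBPG from ATF4, and CHAC1 from PPP1R15A. TRIB3 lay 8.55 SD above ASNS, DDIT3 lay 2.87 SD above TRIB3, PHGDH 2.96 SD above DDIT3, and CHAC1 4.53 SD above ATF4.

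To see how far the rest of the program moved, lists of genes by role were counted in the same way. Of the machinery upstream of ATF4, 15 of 16 genes of the eIF2 kinases, eIF2, its exchange factor and its phosphatase had a fold change, and 0 passed 2-fold in either direction at either dose, with medians of −0.01 and −0.00. Of all genes, 1.61% and 3.71% were lower past 2-fold at the low and high dose, and 3.38% and 6.84% were higher. A count of 0 of 15 is near those shares. EIF2AK3, which encodes the ER stress kinase PERK, had signals of 160, 165 and 142 and log2 fold changes of −0.02 and 0.08. EIF2AK4, which encodes the amino acid sensor GCN2, had signals of 1730, 3609 and 2007 and stood at 1.999-fold and 1.38-fold of control, just under the threshold at the low dose, and passed it without scaling or with spike-in scaling. By the brightest probe, PPP1CB, a catalytic subunit of the phosphatase, was the lowest of the list at the low dose. It was at −0.60 and −0.68, and its second probe at −0.13 and −0.40. EIF2S2, the beta subunit of eIF2, was at −0.36 and −0.89, PPP1CC, another catalytic subunit, at −0.22 and −0.90, and PPP1R15B, the constitutive counterpart of PPP1R15A, at −0.15 and −0.53. The second EIF2S2 probe was at −0.88 and −1.26, past 2-fold at the high dose. The median of this list moved with the scaling, at the low dose to 0.05 without scaling, and at the high dose to −0.25 without scaling and −0.29 with median scaling, where 14 of 15 genes were lower (8 of 15 in the scaled values) and EIF2S2 and PPP1CC were lower past 2-fold, and to 0.06 with the percentile over all spots.

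Of 29 other ATF4 and CHOP targets, 28 had a fold change. At the low dose 1 was lower past 2-fold (1.61% of all genes) and at the high dose 7 were (3.71%). None was higher past 2-fold at either dose (3.38% and 6.84% of all genes), and the medians were −0.29 and −0.59. DDIT4, an inhibitor of mTORC1, had signals of 7297, 4136 and 1245, and its log2 fold changes were −0.88 and −2.30. CTH, which makes cysteine, was at −1.18 and −1.66, and JDP2, a bZIP repressor, at −0.96 and −1.63. The others lower past 2-fold at the high dose were STC2 (−1.63), VLDLR (−1.33), NUPR1 (−1.12) and EIF4EBP1 (−1.01). PCK2 was at −0.55 and −0.80 on its brightest probe, under 2-fold, but at −1.44 and −1.33 on its second.

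The list also had genes above control at 1 or both doses. ATF3, a bZIP factor that p53 also induces, had signals of 2021, 4009 and 1279 on the brightest of its 4 probes, with log2 fold changes of 0.93 and −0.41, and its other probes ranged from −0.35 to 0.80 at the low dose and from −0.14 to −0.04 at the high dose. TXNIP, an inhibitor of thioredoxin, was at 0.80 and 0.88. BBC3, which encodes PUMA and is a p53 target as well, was at 0.60 and 0.11, and RIT1 at 0.42 and 0.64. FGF21 was not well above background on any array.

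Amino acid transporters were lower in most cases. Of 11, 10 had a fold change, and 1 was lower past 2-fold with 10 μM (1.61% of all genes) and 6 with 100 μM (3.71%), with medians of −0.43 and −1.08. The lowest at the high dose were SLC1A4 (−1.88, signals of 136, 85.7 and 31.2), SLC6A9, a glycine transporter (−1.46), and SLC1A5, a glutamine transporter (−1.44), followed by SLC7A1 (−1.21), SLC38A1 (−1.08) and SLC43A1 (−1.07). The second probes of SLC6A9 and SLC38A1 were each at −0.99 at the high dose, just under 2-fold. From the low to the high dose the SLC6A9 probes differed in direction, at −0.44 on the brightest and 0.25 on the second. SLC3A2, the heavy chain that SLC7A11 needs at the cell surface, had signals of 2297, 1775 and 1056 and was at −0.43 and −0.87. SLC38A2 was at −0.13 at each dose, and SLC36A4 was the 1 transporter above control, at 0.58 and 0.41. SLC7A3 was not well above background on any array.

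Of 17 enzymes of serine, one-carbon, proline and glutathione metabolism, 0 passed 2-fold at the low dose (1.61% of all genes were lower and 3.38% higher). The medians were −0.40 and −0.54 at the low and high dose. At the high dose 5 were lower past 2-fold (MTHFD2, MTHFD1L, MTHFD1, SHMT2 and SHMT1), beside 3.71% of all genes. Without scaling 8 were, with ALDH1L2 (−0.94 in the scaled values), GCLC (−0.86) and GSR (−0.82) added. MTHFD2, the mitochondrial folate dehydrogenase induced by ATF4, had signals of 5937, 4361 and 1064 and log2 fold changes of −0.51 and −2.23. MTHFD1L was at −1.78 at the high dose, MTHFD1 at −1.33, SHMT2 at −1.31 and SHMT1 at −1.06. The second SHMT1 probe was at −0.95 at the high dose, under 2-fold. PSPH, which completes serine synthesis after PHGDH and PSAT1, was at −0.70 and −0.32. GCLC and GCLM, the subunits of the enzyme that begins glutathione synthesis, were at −0.86 and 0.32 at the high dose.

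The 12 aminoacyl-tRNA synthetases, several of which are ATF4 targets, were lower in 12 of 12 cases at each dose (54.6% and 42.4% of all genes at the low and high dose). None passed 2-fold at the low dose (1.61% of all genes were lower past it), and YARS (−1.29), GARS (−1.23) and LARS (−1.12) did at the high dose (3.71%), where the median was −0.81. NARS and WARS were nearest to control at the high dose, at −0.42 and −0.46. The 12 of 12 held under each of the 7 other scalings and background corrections, whereas the number past 2-fold at the high dose rose to 7 without scaling and 10 with median scaling.

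Genes of the other branches of the ER stress response stayed near the middle of all genes. Of 18 ER chaperones and genes of the ATF6 and IRE1 branches, 17 had a fold change and 0 passed 2-fold at either dose. That count is near the shares of all genes, of which 1.61% and 3.71% were lower and 3.38% and 6.84% higher past 2-fold. At the high dose 15 of 17 were above control and 2 below it (42.4% of all genes were below), with a median of 0.18, beside 0.10 for all genes. The number above control fell to 7 without scaling or with median scaling and to 9 with spike-in scaling. The median turned to −0.07 without scaling and −0.11 with median scaling. CRELD2 was at 0.55 and 0.81, DNAJB11 at 0.30 and 0.70 and DNAJC3 at 0.19 and 0.67. HSPA5, the ER chaperone BiP, had signals of 2619, 2133 and 2417 and was at −0.36 and 0.13, and XBP1 was at 0.01 at the high dose.

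**Figure D3:**
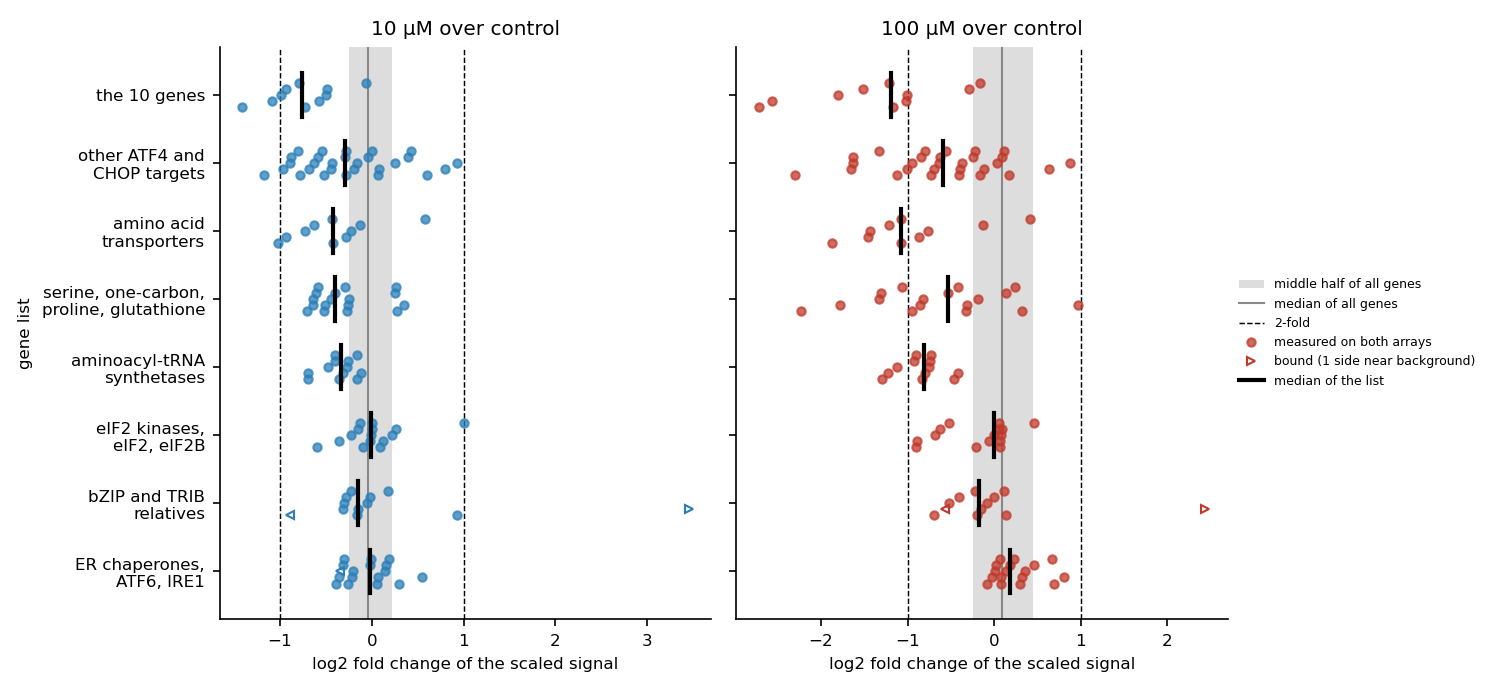
Log2 fold change of the scaled signal over control at 10 μM (left) and 100 μM (right) for each gene of the 8 lists, 1 point per gene. Black bars are list medians, the grey band and line the middle 50% and the median of all genes, dashed lines 2-fold, and open triangles bounds for genes near background on 1 array. At 100 μM the medians of the 10 genes (−1.20), the amino acid transporters (−1.08), the synthetases (−0.81), the other ATF4 and CHOP targets (−0.59) and the serine, one-carbon, proline and glutathione enzymes (−0.54) lie left of the band, and those of the eIF2 list (−0.00), the bZIP and TRIB relatives (−0.18) and the ER list (0.18) lie inside it.

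The last list held relatives of the transcription factors and of TRIB3. Of 13 bZIP and TRIB relatives, 12 had a fold change, 0 were lower past 2-fold and 1 was higher at each dose, shares near those of all genes, with medians of −0.16 and −0.18. That one was CEBPE, a C/EBP factor of granulocytes, with a signal of 14.1 in control cells that was not well above background, then 222 and 89.0, at least 10.9-fold and at least 5.43-fold higher than control. CEBPB, a partner of ATF4, was at −0.16 and −0.70, and TRIB1 at 0.18 and −0.01. TRIB2 had signals of 40.3, 17.7 and 22.9, near background. ATF7 was not well above background on any array, and ATF3, ATF5, ATF6 and CEBPB belong to more than 1 list.

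The genes with the pattern nearest to that of SLC7A11 (distance between the pairs of log2 fold changes, over 3 arrays and 12047 genes with a RefSeq mRNA accession) were C3orf26, KLHDC7B, MT1G, TUBE1 and FUT1, at distances of 0.35, 0.37, 0.43, 0.46 and 0.49. MT1G, a metallothionein, had signals of 1734, 592 and 287, and TUBE1, epsilon tubulin, 1666, 789 and 274. None of the 5 belongs to the lists above.

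Of 8 markers of other cell types, 6 (PTPRC, CD68, PECAM1, ACTA2, DES and KRT7) were well above background on every array, and the fibroblast markers COL1A1 and COL1A2 were on none. The signals of the 8 ranged from 4.30 to 3635 without etoposide, from 4.97 to 8750 with 10 μM and from 5.02 to 5861 with 100 μM. ACTA2, a smooth muscle actin, was at 1908, 8750 and 5861, with log2 fold changes of 2.14 and 1.87, and CD68, a lysosomal protein of macrophages, was at 0.40 and 1.49. PTPRC, a leukocyte marker, was at −1.03 and 0.41 on the brightest of its 5 probes, and its other probes gave no fold change. PECAM1, an endothelial marker, was at −0.73 and −0.48, DES at 0.01 and 0.24 and KRT7 at 0.07 and 0.44. Their part in the decreases of the 10 genes was not tested.

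**Figure D4:**
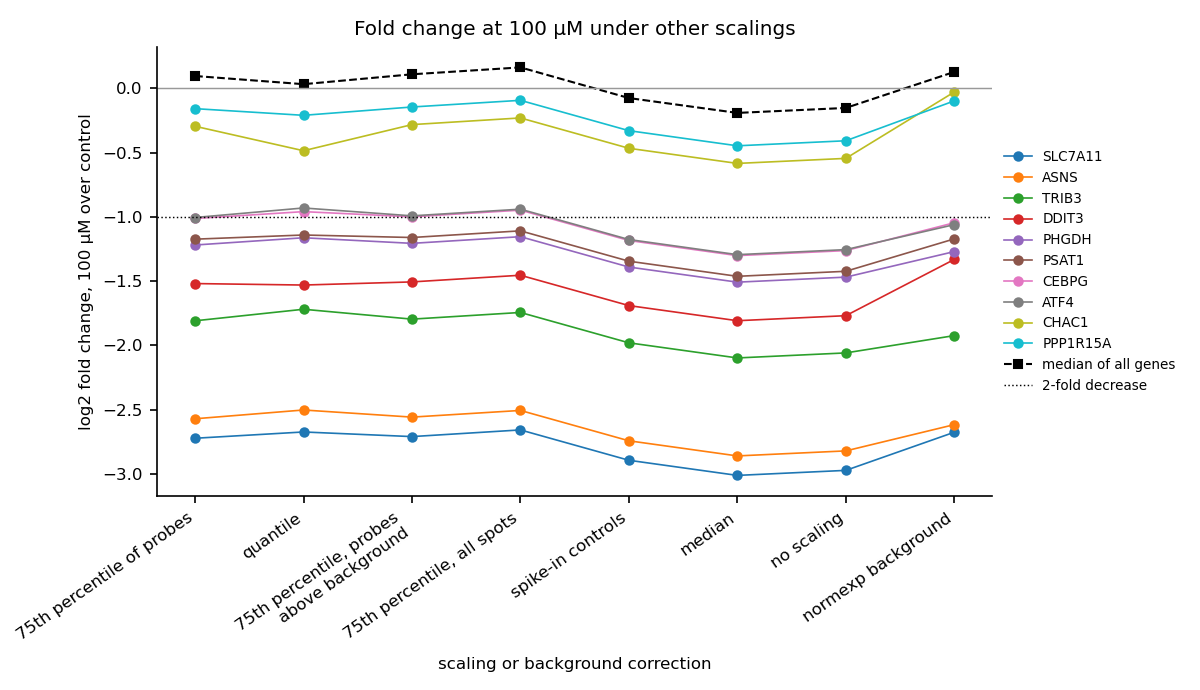
Log2 fold change at 100 μM over control of each of the 10 genes (lines) under the scaling used in the text (far left) and 7 other scalings or background corrections; the dashed black line is the median of all genes and the dotted line a 2-fold decrease. All 10 genes stayed below 0 throughout, 6 stayed below the 2-fold line, and ATF4 and CEBPG crossed it, with ranges of −1.29 to −0.93 and −1.30 to −0.95.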

How the data were processed

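Total RNA of HepG2 cells treated for 30 h with 0, 10 or 100 μM etoposide was read with Cy3 on Agilent arrays of 1 color, 1 array per dose. The authors deposited the output of Feature Extraction 10.7.3.1, which holds background-subtracted intensities, spot by spot (44495 spots, 43118 of them not controls), and a table of the whole series that equals these intensities, not scaled between arrays.

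From the deposited intensity, log2 values were averaged over each probe's spots, leaving out outliers, and the array's own 75th percentile over all probes was subtracted. A gene was read from its brightest probe. Fold changes were formed where the brighter side was well above background, and the dimmer side was raised to the lowest signal well above background of its array, which gives a bound. The SD between spots came from the 50 repeated probes (10 spots each) nearest in signal. No test was possible; the number of arrays limits the precision.

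The 10 genes and all lists were chosen with earlier results of these data known. Named beside the 10 genes were genes from the 3 highest and 3 lowest of each list at each dose, though not all of them, and the 5 genes nearest to SLC7A11. A gene selected by this rule is not reported here. Others (EIF2AK3, PPP1R15B, STC2, VLDLR, NUPR1, EIF4EBP1, PCK2, FGF21, SLC7A1, SLC38A1, SLC43A1, SLC3A2, SLC7A3, SHMT1, SHMT2, ALDH1L2, GSR, ATF7 and the markers) were chosen after their values were seen or to complete a count. Probe positions are those of the files (hg18). Promoters are from RefSeq (GRCh38.p14), in which 10 of 10 symbols matched. Steps were tested on simulated data with Python 3.11.15, numpy 2.4.6 and pandas 2.3.3, and normexp used R 4.3.3 with limma 3.58.1. The simulation had to recover rises and leave unchanged genes uncalled, but recovery of decreases was not required. The 15 alternatives are other scalings, background corrections, filters, probe rules, fold thresholds and the series table.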

Additional observations from a re-analysis of the deposited data

How the results depend on the processing

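No paired analysis was possible because each dose had 1 array, and for the same reason no replicate could be left out. Across the 15 alternatives no value of the 10 genes past 2-fold changed its direction. Under 2-fold, CHAC1 from the low to the high dose (0.20 in the text) turned to −0.11 without scaling, −0.07 with median scaling, −0.03 with spike-in scaling and −0.35 with the mean of both probes, and PPP1R15A at the low dose (−0.06) to 0.00 without scaling. The median log2 fold change of the 10 genes at the high dose was −1.45 without scaling, −1.49 with median scaling and −1.37 with spike-in scaling (−1.20 in the text), and from the low to the high dose it was −0.79, −0.75 and −0.71 with these and −0.41 with the 75th percentile over all spots (−0.48 in the text). These scalings moved the median of all genes too, by −0.25, −0.29 and −0.17 at the high dose. Decreases past 1.5-fold in place of 2-fold numbered 6 at the low dose and 4 between the doses, and past 3-fold 0 at the low dose, 3 at the high dose and 1 between the doses. Elsewhere the decreases past 2-fold at the high dose numbered 6 to 9 of 10. Of 360 single values of a gene, 264 moved by less than the SD between spots and 96 by more. The 264 include values that could not move, so this count is no measure of stability. The series table holds the same intensities, and the background filters leave brightest probes well above background on every array unchanged. The mean of all probes can change CHAC1 alone. Among all genes past 2-fold at the high dose, the share that was higher was 64.8% in the text, 37.2% without scaling, 33.2% with median scaling, 49.8% with quantile normalization, 45.1% with spike-in scaling and 47.6% with normexp, and between the doses it was 52% against 22.4%, 25.4%, 34.7%, 28.9% and 27.7%. Signal over background limits CHAC1 most, whose brighter probe gave 5.25, 3.35 and 3.24 times the lowest signal well above background at 0, 10 and 100 μM.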
